A study of Saccharomyces cerevisiae with 6 samples.

Results

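The genes described here are 9 NAD synthesis and uptake genes of Saccharomyces cerevisiae, BNA1 to BNA7, NPT1 and TNA1, out of 6461 genes in the count table. They were taken by name around BNA2, which was chosen by its counts at 37°C against 30°C, so every value of BNA2 and every value of the group in that comparison is a description with no test. Total RNA was measured by 3′-Tag-seq (QuantSeq), which reads a short stretch near the 3′ end of polyadenylated transcripts, in 2 biological replicates at each of 25°C, 30°C and 37°C. All 3 groups were the same strain, mating type a in the BY4741/2 background, with the cap-binding protein Cbp80 tagged (CBP80-PPX-PrA) and the mRNA export factor Yra1 tagged (SNAPf-YRA1), so that the controls carried both tags too. Cells grew in rich medium (YPD) at 25°C or 30°C. The 37°C cultures were grown at 25°C and then, once diluted into as much warm fresh medium again, kept at 37°C for 2 h, so that higher temperature and fresh medium cannot be told apart. Nothing in the labels says whether a replicate number ties libraries across temperatures.

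NAD is a coenzyme that carries electrons in metabolism and is consumed by the sirtuin deacetylases. Yeast makes it de novo from tryptophan through the kynurenine pathway, in which Bna2, Bna7, Bna4, Bna5, Bna1 and Bna6 act in that order, or from nicotinic acid, which Tna1 imports and Npt1 converts to the same product that Bna6 makes. Bna3 takes kynurenine off this route, to kynurenic acid. In yeast with ample NAD the BNA genes are known to be held down by the sirtuin Hst1 with the DNA-binding protein Sum1 and its partner Rfm1, a complex that also represses middle sporulation genes.

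The depth behind these values was low. Between 184456 and 1006632 counts fell in genes per library (median 863370.5), and the smallest was the first 25°C library, where 3 counts were worth 17.6 CPM (counts per 1e6, on library sizes scaled by TMM), against 2.80 to 4.23 CPM in the other 5. The Pearson correlation of log2 CPM between the 2 replicates was 0.813 at 25°C, 0.904 at 30°C and 0.974 at 37°C, each across genes, which are not independent replicates. The 4 markers of mating type a summed to 334 to 837 CPM at 25°C, to 642 to 1554 CPM at 30°C and to 359 to 491 CPM at 37°C, and the 4 markers of mating type alpha to 33.0 to 70.3 CPM at 25°C, 23.6 to 48.0 at 30°C and 42.5 to 44.9 at 37°C, with SAG1 the only alpha marker tested and MF(ALPHA)1 at 1 count or 0 in every library. Of the 6461 genes, 5181 passed the filter on low counts, and all 9 genes of the group were among them. BNA2 passed only through its 37°C libraries.

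The promoters are shown because they hold a short element unevenly across the group. The 300 bases before each coding start were read from the RefSeq R64 genome and searched on both strands for TGACTC, the core bound by the amino acid and purine regulators Gcn4 and Bas1. It was found in 4 of the 9 genes, BNA2, BNA1, BNA4 and BNA6, and in 7.76% of 5990 promoters of the same length. Of the lists given further on, it was in 4 of 11 NAD salvage and shared-step genes and 4 of 14 tryptophan genes. It was in 1 of 5 NAD kinase and carrier genes, 1 of 7 deacetylase and Sum1 complex genes and 2 of 12 middle sporulation genes. BNA2 held 2 copies, which 0.651% of promoters did, and NRK1 and HST1 of those lists also held 2. Capitals mark TGACTC or its reverse complement GAGTCA in the lines that follow, all written 5′ to 3′ on the gene's own strand. The whole 300 bases are given for BNA2 (chrX:578560-578859, plus strand), BNA1 (chrX:471672-471971, minus strand) and BNA5 (chrXII:607120-607419, minus strand), the 3 genes whose 37°C libraries both stood above the other 4. The 30 bases around the element are given for BNA4 (chrII:39004-39033, plus strand) and BNA6 (chrVI:245267-245296, minus strand).
BNA2: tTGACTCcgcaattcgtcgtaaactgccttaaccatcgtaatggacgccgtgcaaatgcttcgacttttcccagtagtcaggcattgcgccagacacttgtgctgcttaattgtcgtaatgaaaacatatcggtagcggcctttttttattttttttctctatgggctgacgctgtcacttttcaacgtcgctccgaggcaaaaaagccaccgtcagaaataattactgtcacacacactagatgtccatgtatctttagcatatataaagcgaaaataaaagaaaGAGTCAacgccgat
BNA1: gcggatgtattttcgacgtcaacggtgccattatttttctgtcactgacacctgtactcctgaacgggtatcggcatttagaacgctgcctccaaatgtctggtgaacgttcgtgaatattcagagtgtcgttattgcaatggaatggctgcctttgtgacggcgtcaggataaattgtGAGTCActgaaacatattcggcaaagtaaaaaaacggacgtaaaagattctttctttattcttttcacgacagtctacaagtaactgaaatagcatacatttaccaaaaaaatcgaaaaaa
BNA5: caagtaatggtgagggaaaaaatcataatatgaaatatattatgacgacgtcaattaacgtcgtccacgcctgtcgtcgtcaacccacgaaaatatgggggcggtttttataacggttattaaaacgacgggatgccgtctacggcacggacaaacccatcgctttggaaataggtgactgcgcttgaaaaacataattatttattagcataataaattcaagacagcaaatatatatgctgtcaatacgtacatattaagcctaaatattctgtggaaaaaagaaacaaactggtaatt
BNA4: cattcttagcacTGACTCttttttccgcca
BNA6: ccccatttatcaTGACTCctaccgcagttt
In BNA2 the copies lie 299 to 294 and 14 to 9 bases before the coding start, and in BNA1, BNA4 and BNA6 the element lies 121 to 116, 129 to 124 and 118 to 113 bases before it. BNA5 holds none and its 37°C libraries stood above the rest, while BNA4 and BNA6 hold it and theirs did not. Whether the element bears on the levels was not tested. The stress element AGGGG was in 4 of the 9 windows (BNA7, BNA4, BNA3 and TNA1) and in 22.2% of all. The match of BNA7, 297 to 293 bases before its coding start, lies within the upstream gene TIF35, which is 237 bases away. The core of the middle sporulation element, searched with the word CACAAAA or CACAAAT and with the word CGCAAAA or CGCAAAT, was in 1 of the 9, that of NPT1, and in 19.9% of all, against 10 of the 12 middle sporulation genes listed further on. In the 9 promoters none of the matches overlapped another, and a match says only that the letters are in the window.

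BNA2 (YJR078W, tryptophan dioxygenase, the entry step of the pathway) is a gene of 1 exon on chromosome X, 578860 to 580221, plus strand. The 25°C libraries held 1 and 3 counts of it, those of 30°C 0 and 0, and those of 37°C 27 and 36. In CPM these are 5.86 and 3.54 at 25°C, 0 and 0 at 30°C, then 28.7 and 33.7 at 37°C. Both 37°C libraries stood above all other 4. In bulk RNA, more cells with BNA2 RNA and more of it per cell cannot be told apart. Pooled over replicates, the level was 31.3 CPM at 37°C (exact Poisson 95% interval 24.1 to 40.1) and 3.93 CPM at 25°C (1.07 to 10.1), a ratio of 7.97 (exact 95% interval 2.96 to 30.2), or 8.85 (2.89 to 44.1) against the second 25°C library alone. At 30°C the 0 counts had an exact Poisson 95% interval up to 2.31 CPM. Against a floor of 3 counts over both libraries, which is 1.88 CPM, the pooled 37°C level was 16.7-fold. With counting error at both temperatures included, the exact 95% interval of the ratio of 37°C to 30°C began at 13.2. These intervals and floors cover counting error only. The end of BNA2 overlaps YJR079W on the same strand by 17 bases. The counts of YJR079W were 0 and 0 at 25°C, 4 and 1 at 30°C, then 14 and 14 at 37°C. Whether reads of either gene reached the count of the other was not tested. MIR1, the mitochondrial phosphate carrier gene upstream on the other strand, was counted 1 and 23 times at 25°C, 70 and 23 at 30°C, then 57 and 67 at 37°C.

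**Figure D1:**
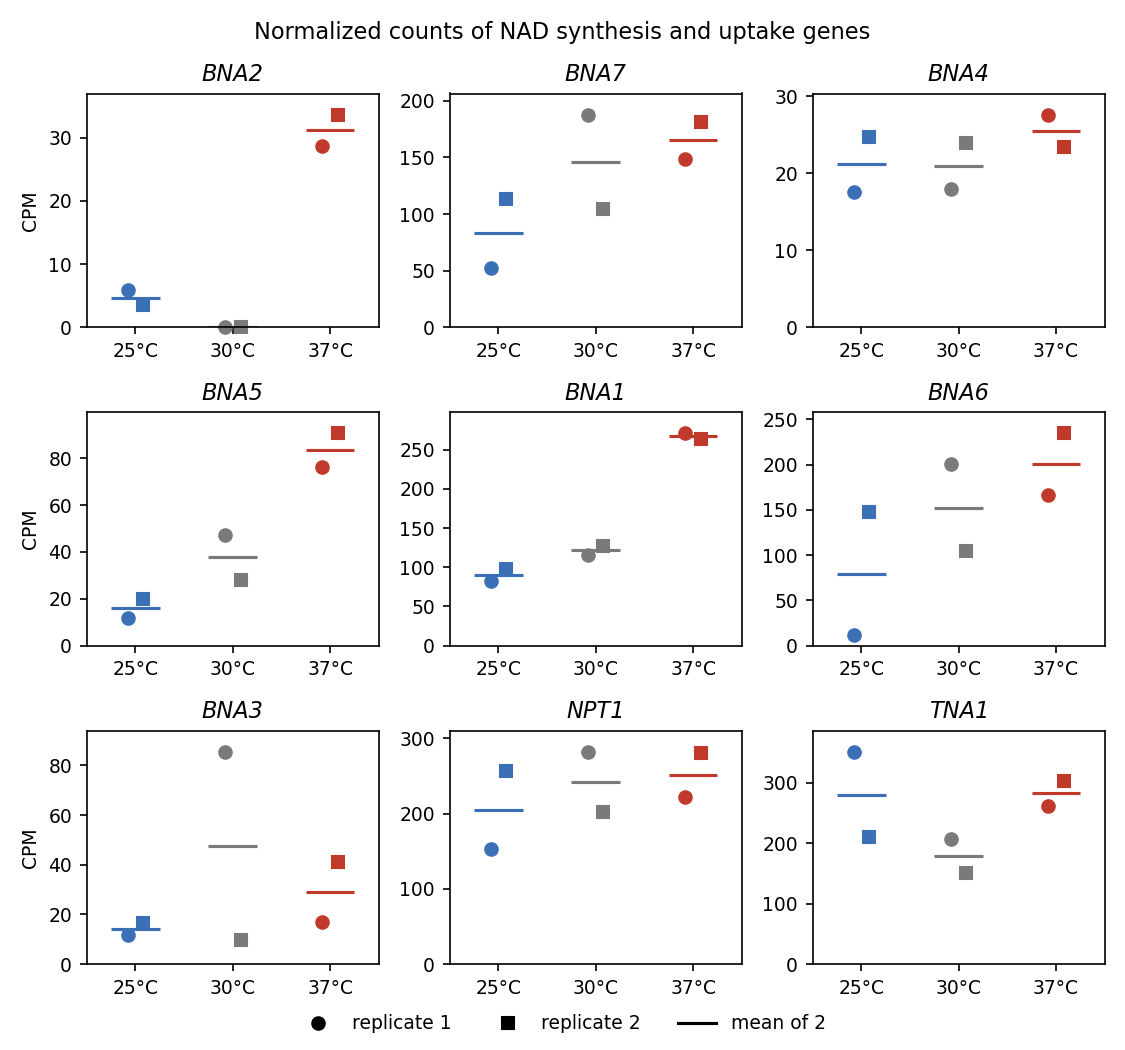
CPM of each of the 9 genes in every library, with temperature in °C on the x axis and CPM on the y axis of each panel. Points are libraries and bars are means of 2. BNA2 stands at 28.7 and 33.7 CPM at 37°C and at 5.86 CPM or less elsewhere, while NPT1 stays between 152 and 282 CPM throughout.

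After Bna2, BNA7 (YDR428C, the formylkynurenine hydrolase) had 52.7 and 113 CPM at 25°C, 188 and 104 at 30°C, then 149 and 181 at 37°C. Its 37°C libraries lay above both 25°C libraries and within the 30°C range. BNA4 (YBL098W, kynurenine monooxygenase) was low, at 17.6 and 24.8 CPM at 25°C, 18.0 and 24.0 at 30°C, then 27.6 and 23.4 at 37°C, so that all 3 groups overlapped. BNA5 (YLR231C, kynureninase, which forms hydroxyanthranilate) had 11.7 and 20.1 CPM at 25°C, 47.2 and 28.2 at 30°C, then 76.5 and 90.7 at 37°C. Its 3 groups did not overlap and followed the temperatures. Its 11.7 CPM is only 2 counts, below the 17.6 CPM that 3 counts were worth in that library, so its order of 25°C and 30°C is uncertain. The groups of BNA1 (YJR025C, the hydroxyanthranilate dioxygenase) also followed the temperatures with no overlap, and with less spread. They stood at 82.0 and 97.9 CPM at 25°C, 116 and 127 at 30°C, then 271 and 264 at 37°C. BNA6 (YFR047C, which makes nicotinate mononucleotide) had 11.7 and 148 CPM at 25°C, 200.2 and 104 at 30°C, then 167 and 235 at 37°C. The 2 libraries at 25°C differ by 12.6-fold, which is more than any difference between group means of this gene.

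On the side branch, BNA3 (YJL060W, the kynurenine aminotransferase) had 11.7 and 16.5 CPM at 25°C, 85.5 and 9.88 at 30°C, then 17.0 and 41.1 at 37°C. Its 30°C libraries differ by 8.65-fold and enclose all the others. NPT1 (YOR209C, nicotinate phosphoribosyltransferase) had 152 and 256 CPM at 25°C, 282 and 202 at 30°C, then 222 and 280 at 37°C, with every group overlapping the others. TNA1 (YGR260W, the nicotinic acid importer) had 352 and 210 CPM at 25°C, 207 and 151 at 30°C, then 261 and 304 at 37°C. Its 37°C libraries lay above both 30°C libraries and between the 25°C libraries.

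In R64 coordinates the other 8 genes, each of 1 exon, are BNA7 on chromosome IV from 1323454 to 1324239, BNA4 on II from 39145 to 40527, BNA5 on XII from 605758 to 607119, BNA1 on X from 471138 to 471671 and BNA6 on VI from 244279 to 245166. BNA3 lies on X from 323386 to 324720, NPT1 on XV from 736437 to 737726 and TNA1 on VII from 1012485 to 1014089. Their annotated neighbours did not overlap them. Per kilobase of coding length, averaged over all 6 libraries, the levels ran from BNA1 at 299 CPM per kb, through NPT1 at 180.2, BNA7 at 167, BNA6 at 162 and TNA1 at 154, to BNA5 at 33.6, BNA3 at 22.7, BNA4 at 16.3 and BNA2 at 8.78. The library ranges of neighbours in this order overlapped for every pair except TNA1 and BNA5. At 37°C alone BNA2 was at 22.9 CPM per kb, against 21.8 for BNA3 and 18.4 for BNA4, so its place at the end of the order comes from 25°C and 30°C. Tags near the 3′ end need not scale with length, and the order changes without the division. In plain CPM, averaged in the same way, TNA1 was at 247, NPT1 at 233, BNA1, the shortest of the 9 genes, at 159.6, BNA6 at 144, BNA7 at 131, BNA5 at 45.7, BNA3 at 30.3, BNA4 at 22.6 and BNA2 at 11.96.

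At 37°C against 25°C, edgeR's quasi-likelihood test with Benjamini-Hochberg adjustment called 0 of the 9 genes and 0% of the 5181 tested. At an unadjusted p under 0.05 it passed 702 genes, DESeq2 called 53 genes and limma-voom 0. DESeq2 gave an adjusted p to only 1156 genes here, of the group only to NPT1 and TNA1, so that for the other 7 it made no call either way. Apart from BNA2, 2 of the 8 others had an unadjusted p under 0.05, both higher at 37°C, where 7.53% of all genes tested were higher and 6.02% lower at that level. BNA5 was higher by 2.22 on the log2 scale (SE 0.45, 95% interval 1.17 to 3.28, edgeR adjusted p = 0.173). BNA1 was higher by 1.54 (SE 0.29, 0.85 to 2.24, edgeR adjusted p = 0.152). Neither passed the adjusted threshold of 0.05. The other log2 differences were 1.11 (SE 0.75) for BNA6, 0.93 (SE 1.05) for BNA3, 0.89 (SE 0.45) for BNA7, 0.27 (SE 0.37) for NPT1, 0.16 (SE 0.42) for BNA4 and 0.035 (SE 0.37) for TNA1, whose sign was negative with DESeq2 and with its size factors. Over these 8 genes the median was 0.91, against 0.088 over all genes tested. All 8 were positive, where 55.4% of all genes were. That median was 0.46, with 7 positive, without the first 25°C library and 1.44 without the second, and 0.53 without the second 37°C library. Without the second 25°C library, the log2 difference was 1.67 for BNA1 and 4.04 for BNA6. That fit leaves only the first library at 25°C, where BNA6 had 2 counts.

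**Figure D2:**
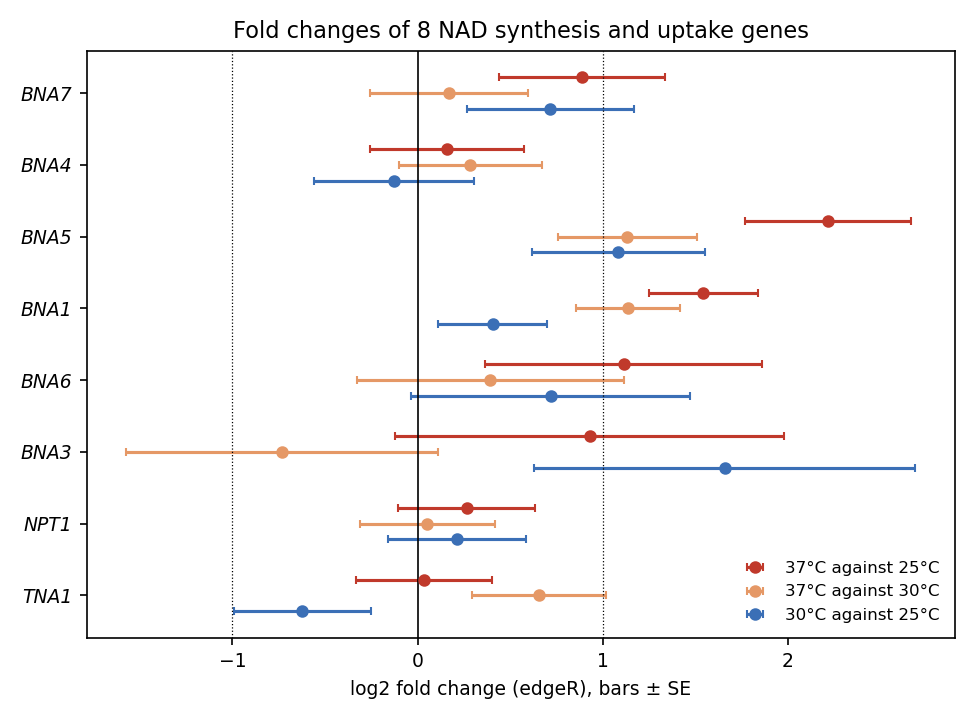
Log2 fold change of the 8 genes other than BNA2, with genes down the page, log2 fold change on the x axis and a colour for each of the 3 comparisons. Points are edgeR estimates, bars are 1 SE to each side and dotted lines mark 1 and -1. BNA5 (2.22) and BNA1 (1.54) lie farthest right at 37°C against 25°C, and 0 of the genes were called.

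In 37°C against 30°C, the comparison the group was taken up for, the 8 genes other than BNA2 had log2 differences of 1.14 (SE 0.28) for BNA1, 1.13 (SE 0.38) for BNA5, 0.66 (SE 0.36) for TNA1, 0.39 (SE 0.72) for BNA6, 0.29 (SE 0.39) for BNA4, 0.17 (SE 0.43) for BNA7, 0.053 (SE 0.36) for NPT1 and -0.73 (SE 0.84) for BNA3. Their median was 0.34, against -0.012 over all genes, and it was 0.89 without the first 30°C library and 0.22 without the second. As a description only, edgeR called 0 of the 9 genes and 0% of all genes. At an unadjusted p under 0.05 it passed 366 genes (4.65% higher and 2.41% lower), and DESeq2 called 15 and limma-voom 0.

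In 30°C against 25°C, edgeR called 0 of the 9 genes and 0% of all genes. At an unadjusted p under 0.05 it passed 73 genes, while DESeq2 and limma-voom each called 0. Of the 8 genes other than BNA2, 0 had an unadjusted p under 0.05, where 1.1% of all genes tested were higher and 0.309% lower at that level. The largest differences were 1.66 (SE 1.03) for BNA3 and 1.08 (SE 0.47) for BNA5. They were 0.72 for both BNA7 (SE 0.45) and BNA6 (SE 0.75), 0.41 (SE 0.30) for BNA1, 0.21 (SE 0.37) for NPT1, -0.13 (SE 0.43) for BNA4 and -0.62 (SE 0.37) for TNA1. All of these adjusted p were 0.889 or more in edgeR. The 2 comparisons with 25°C share its libraries, as the 2 with 30°C share theirs.

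Counted by library, and with BNA2 left out because its counts chose it, BNA1 and BNA5 were higher in both 37°C libraries than in all other 4. That makes 2 of 8, where 16.9% of all genes tested were higher in that way and 12.3% lower, and 0 of the 8 were lower. Without the first 25°C library the count was 3 of 8, with TNA1 added, against 21.7% of all genes. Without the first 30°C library it was 5 of 8, with BNA3, BNA6 and BNA7 added to BNA1 and BNA5, against 24.9%. Scaled by library totals alone it was also 5, against 29.7%. That scaling moved the median of all genes at 37°C against 25°C up by 0.24, and with it 634 genes were higher and 110 lower at an unadjusted p under 0.05 in edgeR, against 390 and 312 with TMM. Taken pairwise, 5 of the 8 had both 37°C libraries above both 25°C libraries, where 29.4% of all genes did. As a description only, 3 of the 8 had both above both 30°C libraries, where 24.2% of all genes did. In 30°C against 25°C, BNA1 and BNA5 were higher in both (13.1% of all genes) and TNA1 lower in both (10.4%). For BNA5 this rests on a first 25°C library with 2 counts of it.

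The rest of NAD metabolism was counted on fixed lists, with 0 genes called by edgeR in each. Of 11 genes of NAD salvage and the shared last steps, 10 were tested. At 37°C against 25°C their median log2 difference was 0.75, with 9 positive (55.4% of all genes were), and 1 had an unadjusted p under 0.05 (7.53% of all genes were higher at that level), which is near the share over all genes. That was PNC1, the nicotinamidase that returns nicotinamide to nicotinic acid, at 1.40 (SE 0.44, edgeR adjusted p = 0.289). NMA1, which adds the adenylyl group to nicotinate mononucleotide, was at 1.67 (SE 0.76, edgeR adjusted p = 0.385). Its counts were low, at 0 and 9 at 25°C, 20 and 6 at 30°C, then 20 and 34 at 37°C. The 0 is in the first 25°C library, where 3 counts were worth 17.6 CPM. The median of 0.75 includes the first 25°C library, which held 1 count each of QNS1, ISN1 and POF1 and 3 of SDT1. The second 25°C library held 25, 27, 16 and 72. In CPM, URH1 and NMA2 were higher in the first than in the second. No median of this list was taken without the first library. At 37°C against 30°C the median of this list was 0.21. At 37°C against 25°C the NAD kinases and mitochondrial carriers, 4 of 5 tested, had a median of 0.013. The kinase YEF1 was at 1.08 (SE 0.55) and the mitochondrial kinase POS5 at -0.71 (SE 0.64). POS5 had 93.8 and 23.6 CPM at 25°C, then 29.7 and 28.0 at 37°C. Its negative value thus rests on the first 25°C library, with 16 counts of it. The NAD-dependent deacetylases with the Sum1 complex, 5 of 7 tested, had a median of 0.27. SUM1 itself was at -0.038 and HST1 at -0.17, while RFM1 was at 0.96 and the sirtuin HST3 at 0.48, none with an unadjusted p under 0.05.

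On the side of the substrate of Bna2, all 14 genes of tryptophan synthesis, uptake and transamination were tested, with a median log2 difference of 0.037 at 37°C against 25°C. In 37°C against 30°C the median was -0.37, and 11 of 14 were negative, where 48.7% of all genes tested were positive. The lowest p at 37°C against 25°C belonged to ARO2, chorismate synthase, at -0.84 (SE 0.32, edgeR adjusted p = 0.344), and TAT1, an amino acid permease, at -1.09 (SE 0.45, edgeR adjusted p = 0.354). Of the 14, 4 were lower in both 37°C libraries than in all other 4 (12.3% of all genes were) and 1 was higher (16.9%).

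Of 12 middle sporulation genes known to be under Sum1, only 3 passed the filter. Of the 12, 8 were higher in both 37°C libraries than in the other 4, where 16.9% of all genes tested were. Without the first 25°C library it was 9, against 21.7%. Of the 9 that failed the filter 6 were higher than in the other 4, where 15.7% of the genes with a count that failed the filter were. Those 6 were low, with 2 to 16 counts in the 37°C libraries and 0 to 5 in the others. The 3 that passed were SPR28, a sporulation septin whose counts are given with the profiles nearest to BNA2, NDT80, the activator of the middle genes, and SPS4. NDT80 had 0 and 27 counts at 25°C, 23 and 15 at 30°C, then 53 and 51 at 37°C, and SPS4 had 2 and 16 counts at 25°C, 13 and 16 at 30°C, then 12 and 11 at 37°C. A gene that passed through its 37°C libraries, as SPR28 did, had to differ, so no test is read from the 3.

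**Figure D3:**
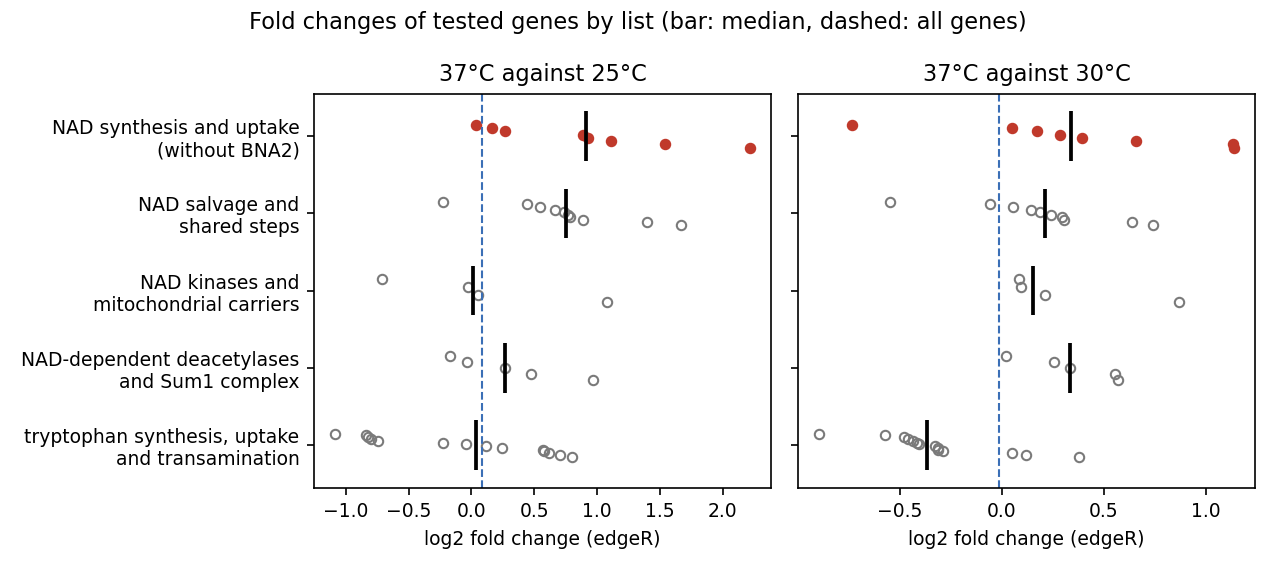
Log2 fold change of the tested genes of each list at 37°C against 25°C (left) and at 37°C against 30°C (right), with lists down the page. Points are genes, bars medians and the dashed line the median of all genes tested. On the left the 8 genes of the group other than BNA2 have a median of 0.91, the salvage list 0.75 and the tryptophan list 0.037. These medians include the smallest library, the first at 25°C.

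The genes whose profile lay nearest to that of BNA2 were found over the 6 libraries among 5172 tested genes outside the group, by the mean absolute difference in centred log2 CPM, where the median gene lay at 1.43. Nearest was SPR28, the septin, at 0.61, with 1 and 5 counts at 25°C, 5 and 1 at 30°C, then 22 and 22 at 37°C. SNR4, a small nucleolar RNA, lay at 0.66, with 26 and 173 counts at 25°C, 172 and 104 at 30°C, then 869 and 665 at 37°C. SPO74, of the meiotic spindle pole body, lay at 0.68, with 0 and 2 counts at 25°C, 2 and 1 at 30°C, then 16 and 27 at 37°C. HED1, a meiotic gene, lay at 0.69, with 0 and 2 counts at 25°C, 1 and 1 at 30°C, then 15 and 19 at 37°C. YPR145C-A also lay at 0.69, with 2 and 3 counts at 25°C, 7 and 8 at 30°C, then 62 and 62 at 37°C. Within the group the nearest to BNA2 were BNA1 at 0.99, BNA5 at 1.15 and TNA1 at 1.16, and the other 5 lay at 1.30 to 1.73. These distances are descriptions over libraries that the choice of BNA2 used.

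**Figure D4:**
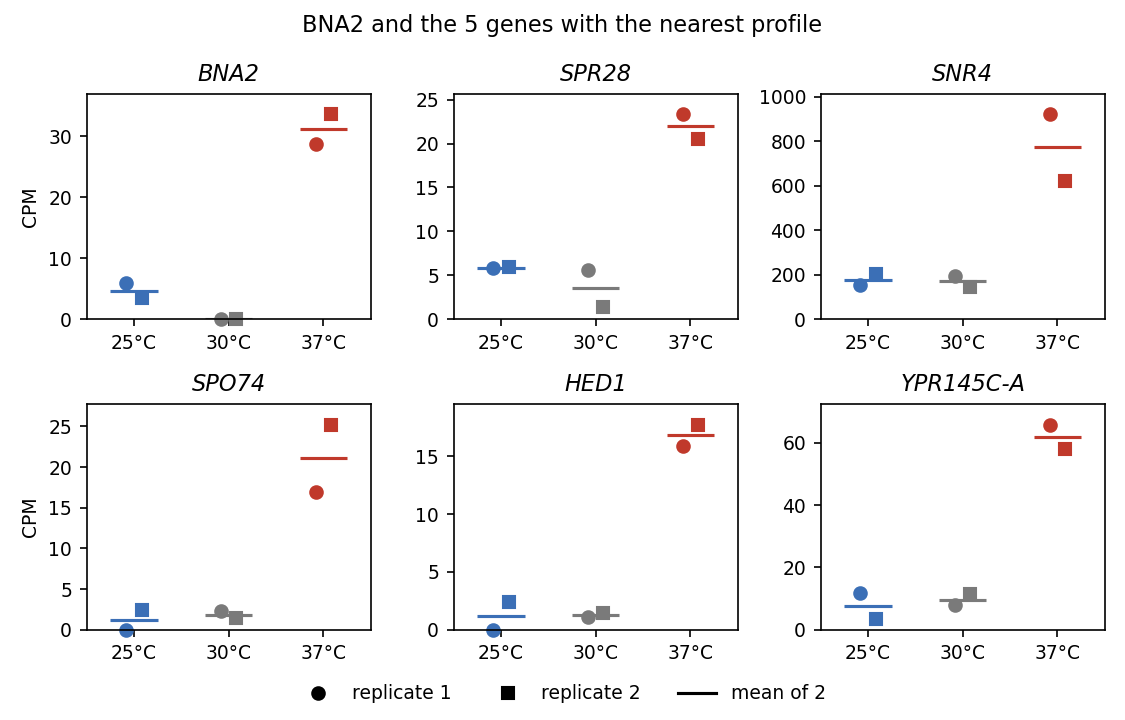
CPM of BNA2 and of the 5 genes nearest to it in profile, with temperature in °C on the x axis and CPM on the y axis of each panel. Points are libraries and bars are means of 2. In each panel both 37°C libraries stand above all others, and SNR4 is the most abundant with 869 and 665 counts at 37°C.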

How the data were processed

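Total RNA of 6 yeast libraries, 2 replicates at each temperature, was analysed. The count values were deposited by the authors as raw counts per gene on R64, and the submitters' processing notes name STAR 2.7.10a and HTSeq 2.0.2, besides UMI-tools 1.0.1 and DESeq2 1.38.2. The strand setting was not given in the sources used here. A normalized signal deposited by the authors, times 1 size factor per library, gave whole numbers for 100% of values within 0.001. Of 6461 genes 6458 matched the annotation. The 5 summary entries, which no gene owns, were left out: reads in no feature were 41.1% to 47.9% of entries, not unique 7.81% to 14.1% and ambiguous 0.0313% to 0.0559%.

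Raw counts were tested with edgeR 4.0.16 in R 4.3.3 (quasi-likelihood, TMM, filterByExpr, all 6 libraries, temperature as the only term), with genes called at a Benjamini-Hochberg adjusted p under 0.05 and a log2 fold change beyond 1. CPM used TMM library sizes. Alternatives were DESeq2 1.42.0, limma 3.58.1 (voom), other scalings and filters, a replicate block and leaving out each library. The replicates are called biological, and no source says how they were split, so p-values measure the spread between these samples, which may be technical. Named genes were the 9 genes, the 2 lowest p at 37°C against 25°C in each list, and the 5 nearest profiles to BNA2, and any others were named after their values were seen. Genes and lists were chosen with earlier results of these data known.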

Additional observations from a re-analysis of the deposited data

How the results depend on the processing

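With 2 libraries per temperature and low counts, the calls rest on little data. Leaving out each library in turn gave 3 to 6 genes of the group higher at 37°C than in the rest. BNA2, which was chosen for its counts, is among them each time. The share of all genes tested was 16.9% with every library, 21.7% without the first 25°C library and 24.9% without the first 30°C library. At 37°C against 30°C DESeq2 called 1 gene of the group, BNA2, which that comparison chose, so nothing is read from it. Scaling by library totals gave 6 genes, again with BNA2, higher in both 37°C libraries, where 29.7% of all genes tested were. The log2 difference of TNA1 at 37°C against 25°C was -0.021 with DESeq2 and -0.045 with DESeq2 size factors in edgeR. The cause was not tested. Over the fits that leave out 1 library, the direction turned for TNA1 (-0.35 to 0.40) and NPT1 (-0.059 to 0.68) at 37°C against 25°C, for BNA7 (-0.19 to 0.63), NPT1 (-0.17 to 0.29) and BNA3 (-1.54 to 1.53) at 37°C against 30°C, and for BNA4 (-0.36 to 0.25), NPT1 (-0.066 to 0.67) and BNA3 (-0.64 to 2.45) at 30°C against 25°C. A filter of at least 10 counts in every library left only BNA1, NPT1 and TNA1, so the other genes have no value there.

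With replicate number as a block, 0 genes of the group were called in each comparison. Deviations of same-numbered libraries from their group means correlated across genes at -0.53 (25°C and 30°C), 0.28 (25°C and 37°C) and -0.40 (30°C and 37°C). The signs differ between pairs, and these values cannot settle whether a replicate number ties libraries. With the numbers at 30°C crossed, an alternative chosen after seeing the data, edgeR called 10 genes in all and 0 of the group at 37°C against 25°C. The counts by library under other scalings and without a library, and the fit on the reads recovered from the normalized signal, which called 0 genes, were also chosen after seeing the data.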
